A study of Mus musculus with 60 samples.

Results

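The genes described here are the 10 genes of MHC class I antigen presentation that were chosen by name for their known roles, out of 47729 mouse genes in the deposited table. They are the light chain gene B2m, the heavy chain genes H2-K1, H2-D1 and H2-T23, the peptide transporter genes Tap1 and Tap2, the loading factor gene Tapbp, the immunoproteasome subunit genes Psmb8 and Psmb9, and the class I transactivator gene Nlrc5. All 10 were found in the table and all 10 reached 1 CPM (counts scaled to an equal total per group or cell) in at least 1 group. The question addressed is how their transcript levels compare between dormant and proliferative tumor cells, in all cells and without the cells that hold 10 or more counts of Cd74, a gene of antigen-presenting cells.

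PyMT-Bo1 is a luciferase-expressing mouse mammary tumor line of C57BL6 background that was stained with the membrane dye DiD and given by intracardiac injection to wild-type C57BL6 mice. A cell that divides dilutes the dye, so DiD+ cells (32 cells, called dormant by the labels) had kept it and DiD- cells (28 cells, called proliferative) had lost it. All 60 cells came from the pooled femurs and tibias of 5 mice and were sorted 1 per well for SMART-seq cDNA and sequencing, with CD45 staining used to exclude hematopoietic cells. No mouse is named for a cell, both groups share the same line and pool of hosts, and each group was therefore taken as 1 sample, with no test between the groups and no replicate check of any difference.

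MHC class I molecules carry peptides from inside the cell to its surface, where CD8 T cells and natural killer cells read them. The proteasome cuts proteins, TAP moves the peptides into the endoplasmic reticulum, tapasin helps to load them, and the loaded heavy chain travels to the surface with beta-2-microglobulin. Interferons raise most of these genes through factors that include IRF1 and NLRC5, and NLRC5 acts at the promoter elements named X and Y boxes.

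The promoters of the light chain and of the pair of classical heavy chains are shown because class I promoters are known for the elements at which NLRC5, NF-kappa B and interferon factors act, and because these 3 genes had the highest levels per kilobase. RefSeq (GRCm38.p6) gave a promoter window for 8 of the 10 genes, with none for Tap2 and Nlrc5. The stretches are the 180 bases before the RefSeq start, 5′ to 3′ on the strand of the gene, and the capitals mark every motif found. B2m lies on the plus strand (chr2:122147507-122147686), H2-K1 on the minus strand (chr17:34000348-34000527) and H2-D1 on the plus strand (chr17:35262914-35263093).
B2m: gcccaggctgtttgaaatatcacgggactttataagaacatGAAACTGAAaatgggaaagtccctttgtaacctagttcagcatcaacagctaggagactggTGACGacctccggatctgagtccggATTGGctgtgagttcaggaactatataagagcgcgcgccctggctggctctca
H2-K1: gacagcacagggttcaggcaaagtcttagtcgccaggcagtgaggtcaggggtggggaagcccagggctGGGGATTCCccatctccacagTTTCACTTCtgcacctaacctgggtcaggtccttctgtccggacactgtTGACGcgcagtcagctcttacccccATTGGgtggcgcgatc
H2-D1: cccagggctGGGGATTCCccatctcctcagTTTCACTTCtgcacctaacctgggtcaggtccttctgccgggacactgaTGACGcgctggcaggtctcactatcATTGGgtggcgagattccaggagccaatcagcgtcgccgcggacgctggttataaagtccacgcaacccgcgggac

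All 3 genes had TGACG (X2 box) followed after 20 bases by ATTGG (Y box). The search allowed 10 to 30 bases between them on either strand, and 0.743% of 32851 promoter windows held such a pair. The windows of H2-T23, Tap1, Tapbp, Psmb8 and Psmb9 held no such pair. GGGGATTCC (kappa B) stood in H2-K1 and H2-D1 and in 0.25% of all windows. The interferon response core GAAANNGAA was found in B2m and H2-T23 and in 8.56% of windows. Its other order, GAANNGAAA, which was added after the sequences were seen, was found on the opposite strand in H2-K1 and H2-D1 (TTTCACTTC as printed) and in 7.52% of windows. Psmb8 had TTCNNNGAA (GAS), which reads the same on both strands and was present in 8.3% of windows. The windows of Tap1 and Psmb9, which point away from each other on chromosome 17, shared 275 bases and held none of these motifs. These matches are descriptions of sequence and were not measured as binding sites in these cells.

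The tumor cell markers were Krt8, Krt18, Krt7, Epcam and Cdh1. No cell held more than 2 of these 5 at 10 counts or more, and DiD+ cells 35, 41 and 68 held 1. Their summed level was lower in DiD+ cells (median 2201 CPM, from 266 to 6342) than in DiD- cells (median 4627 CPM, from 356 to 12020). Krt7 and Epcam were at 0 in both groups, and Cdh1 was at 0 in DiD- cells. The total on mouse genes was between 2276789 and 7794219 counts in a cell. Cd74 reached 10 counts in 6 DiD+ cells (19, 21, 24, 30, 37 and 88) and in DiD- cell 84, and was listed at 0 in the other 53 cells. Each of these 7 cells held 10 or more of 13 macrophage or monocyte markers, with summed levels of 1452 to 19055 CPM in the DiD+ cells, and 6 of them also held luciferase transcripts (0 counts in cell 30). Values are therefore given both for all 60 cells and for the 26 DiD+ and 27 DiD- cells without Cd74. In the latter the macrophage sum was at most 177 CPM in DiD+ cells and 127 CPM in DiD-, with Adgre1, Fcgr1 and Cx3cr1 at 0 in both. The erythroid sum without the Cd74 cells reached 53.4 CPM in DiD+ cells and 46536 CPM in DiD-. When cells with at least 4 erythroid markers were left out as well, the median log2 ratio of the 10 genes was 1.56, beside 1.61 with them. The part of the erythroid sum in the results was not tested beyond this.

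Summed over the cells of a group, all 10 genes were higher in DiD+ than in DiD- cells in CPM (4 of them not after spike-in scaling, given below), against 53.2% of the 12432 genes that reached 1 CPM, and 6 of the 10 were at least 2-fold higher, against 12.1% of all genes. The median log2 ratio of the 10 genes was 1.43, and that of all genes 0.04. Without the Cd74 cells the counts were again 10 and 6 of 10, against 53.5% and 10.4% of 12153 genes, and the medians were 1.61 and 0.05. The 6 genes past 2-fold were H2-T23, Tap1, Tap2, Psmb8, Psmb9 and Nlrc5, whereas B2m, H2-K1, H2-D1 and Tapbp, which hold 4 of the 6 highest levels per kilobase in DiD+ cells, were between 0.50 and 0.78 on the log2 scale. Part of this rested on a single DiD+ cell, number 68, singled out after its values were seen. It was the highest of all 60 cells for each of the 10 genes. Without the Cd74 cells and cell 68, 9 of 10 genes were higher and 5 were at least 2-fold higher, beside 53.7% and 9.94% of 12138 genes, and the median of the 10 fell to 0.82. Nlrc5 no longer reached 1 CPM there, and the other 9 had a median of 1.13. Scaling each cell by its ERCC spike-ins, RNAs added in a fixed amount during cDNA synthesis, lowered the median of all genes to -0.34 in all cells. On that scale B2m, H2-K1, H2-D1 and Tapbp turned to -0.0087, -0.14, -0.11 and -0.10. All 10 genes still stood above the median of all genes, by 0.20 to 1.12.

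**Figure D1:**
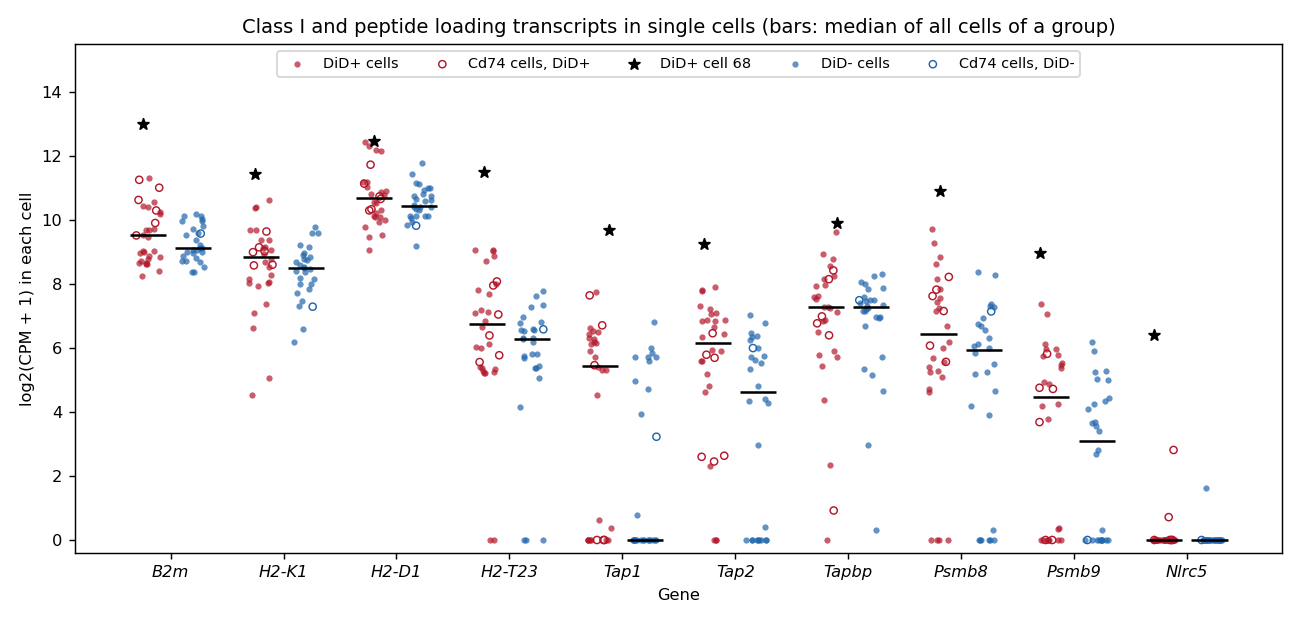
Level of each of the 10 genes in every cell, as log2(CPM + 1), with DiD+ cells in red and DiD- cells in blue, open circles for the 7 Cd74 cells, a star for DiD+ cell 68 and a bar at the median of all cells of a group. The groups overlap for every gene, and cell 68 is the highest cell of each gene.

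B2m (ENSMUSG00000060802, GRCm38 chromosome 2, 122147686 to 122153083, plus strand) encodes beta-2-microglobulin, the light chain that every class I molecule needs at the surface. Its level was 302 CPM in the lowest DiD+ cell, 735 in the median and 8111 in the highest, and 329, 556 and 1153 CPM in DiD- cells. All 60 cells held B2m, the groups overlapped, and 11 of 32 DiD+ cells lay above the highest DiD- cell. The summed level was 1100 CPM in DiD+ (exact Poisson interval 1094 to 1105) against 640.3 CPM in DiD- cells (636 to 645), giving a log2 ratio of 0.78. This 95% interval, like the other CPM intervals below, takes each read as an independent count. The reads carry no molecular identifiers and were amplified, so these intervals are too narrow even for counting error. They do not cover the spread over cells or mice. The Cd74 cells gave a larger share of the B2m counts than of the other 9 genes, 27.6% from 19.9% of all counts of DiD+ cells, and 4 of the 11 high cells were among them. Without them the median DiD+ cell stood at 524 CPM and the median DiD- cell at 554 CPM, so that the order of the medians turned. The summed ratio stayed at 0.64 without them and was 0.26 without cell 68 as well, which alone held 18.6% of the B2m counts of DiD+ cells from 2.52% of their total.

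H2-K1 (ENSMUSG00000061232, chromosome 17, 33996017 to 34000347, minus strand) and H2-D1 (ENSMUSG00000073411, chromosome 17, 35262730 to 35267499, plus strand) encode the classical heavy chains that present peptides to CD8 T cells. H2-K1 ranged from 21.96 to 2768 CPM in DiD+ cells with a median of 463, and from 72.5 to 872 CPM in DiD- cells with a median of 358. The groups overlapped, with 4 DiD+ cells above and 2 below all DiD- cells. Its summed level was 589 CPM in DiD+ (585 to 593) against 369.7 CPM in DiD- cells (366 to 373), giving a log2 ratio of 0.67, and 0.69 without the Cd74 cells.

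H2-D1 ranged from 539 to 5717 CPM in DiD+ cells with a median of 1661, and from 587 to 3492 CPM in DiD- cells with a median of 1391. In 6 DiD+ cells it passed the highest DiD- cell, and the other DiD+ cells lay among the DiD- cells or, in 1 case, below them. The summed levels were 2205 CPM (2198 to 2213) and 1532 CPM (1525 to 1539), giving a log2 ratio of 0.53, and 0.56 without the Cd74 cells. These transcripts are close copies of one another and of other class I genes. RSEM divides reads that match several genes, and the estimated count was not a whole number (tolerance 0.001) in 54 of 60 cells for H2-K1 and in 59 of 60 for H2-D1, against 19.4% of values above 0 over all genes and none for B2m. How much of each value belongs to the named gene is uncertain to that extent.

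H2-T23 (ENSMUSG00000067212, chromosome 17, 36029773 to 36032855, minus strand) encodes the heavy chain of Qa-1, a nonclassical molecule that is read by the natural killer cell receptor NKG2A. A count was present in 30 of 32 DiD+ and 25 of 28 DiD- cells. DiD+ cells had a median of 107 CPM and a highest value of 2921 CPM, and DiD- cells a median of 77.3 CPM and a highest value of 221 CPM. The groups overlapped, and 10 DiD+ cells lay above all DiD- cells. The summed level was 233 CPM in DiD+ (230.4 to 235) against 77.2 CPM in DiD- cells (75.6 to 78.8), giving a log2 ratio of 1.58. It was 1.73 without the Cd74 cells and 1.14 without cell 68 as well, which held 31.7% of the counts. All 55 values above 0 were not whole, so the limit on close copies holds here too.

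Tap1 (ENSMUSG00000037321, chromosome 17, 34187553 to 34197225, plus strand) and Tap2 (ENSMUSG00000024339, chromosome 17, 34203527 to 34216321, plus strand) encode the paired subunits of the transporter that brings peptides into the endoplasmic reticulum. Tap1 was seen in 22 of 32 DiD+ cells (68.8%, exact binomial interval 49.99% to 83.9%) and in 12 of 28 DiD- cells (42.9%, 24.5% to 62.8%). The median DiD+ cell held 42.2 CPM and the highest 831 CPM, while the median DiD- cell held 0 and the highest 111 CPM. With 3 DiD+ cells above the DiD- range, the groups overlapped. The summed level was 69.6 CPM (68.2 to 70.9) against 19.1 CPM (18.3 to 19.9), giving a log2 ratio of 1.81, which was 1.83 without the Cd74 cells and 1.23 without cell 68 as well.

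Tap2 was seen in 29 of 32 DiD+ cells (90.6%, 74.98% to 98.0%) and in 19 of 28 DiD- cells (67.9%, 47.6% to 84.1%). The intervals of these shares, and those for Tap1, take cells as independent draws although a group is 1 sample. They are therefore no comparison of the groups. Its level reached 609 CPM in DiD+ cells with a median of 70.3, and 129 CPM in DiD- cells with a median of 23.7. The groups overlapped, and 8 DiD+ cells, none of them a Cd74 cell, lay above all DiD- cells. The Cd74 cells gave 7.14% of the Tap2 counts of DiD+ cells. The summed levels of 92.4 CPM (90.8 to 93.9) and 35.4 CPM (34.3 to 36.4) gave a log2 ratio of 1.36, and 1.60 without the Cd74 cells. With cell 68 left out too it was 1.36. After each cell was thinned to 2200000 counts the shares were 22 and 12 cells for Tap1 and 29 and 18 cells for Tap2.

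Tapbp (ENSMUSG00000024308, chromosome 17, 33915899 to 33929292, plus strand) encodes tapasin, which holds the empty class I molecule at the transporter. The median cell stood at 154 CPM in DiD+ cells and 153 CPM in DiD-. The highest DiD+ cell reached 959 CPM and the highest DiD- cell 319 CPM, and 6 DiD+ cells lay above the DiD- range. The summed ratio of 0.50 (210 CPM, 208 to 213, against 148 CPM, 146 to 150.2) thus lay in the upper cells while the middle of the groups was level.

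Psmb8 (ENSMUSG00000024338, chromosome 17, 34197721 to 34201454, plus strand) and Psmb9 (ENSMUSG00000096727, chromosome 17, 34181987 to 34187764, minus strand) encode catalytic subunits that take the places of Psmb5 and Psmb6 in the immunoproteasome. Psmb8 had a count in 28 of 32 DiD+ and 22 of 28 DiD- cells. DiD+ cells had a median of 87.5 CPM and a highest value of 1932 CPM, and DiD- cells a median of 60.03 CPM and a highest value of 329 CPM. The groups overlapped, with 5 DiD+ cells above all DiD- cells. The summed level was 211 CPM (209 to 214) against 73.4 CPM (71.9 to 74.9), giving a log2 ratio of 1.51, and 1.63 without the Cd74 cells.

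Psmb9 had a count in 22 of 32 DiD+ and 17 of 28 DiD- cells. Its median was 21.7 CPM in DiD+ cells and 7.82 CPM in DiD-, its highest values were 504 and 72.2 CPM, and 3 DiD+ cells lay above the overlapping range. The summed level was 41.9 CPM (40.9 to 42.98) against 14.2 CPM (13.5 to 14.9), giving a log2 ratio of 1.50, and 1.65 without the Cd74 cells. Cell 68 held 23.1% of the Psmb8 and 30.4% of the Psmb9 counts of DiD+ cells, and without it and the Cd74 cells the ratios were 1.21 and 1.13. The gene models of Psmb9 and Tap1 overlap at their 5′ ends, and in reads that do not mark strand their shared stretch cannot be told apart.

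Nlrc5 (ENSMUSG00000074151, chromosome 8, 94434356 to 94527272, plus strand), the transactivator of the class I genes, was at or near 0 in nearly every cell. It had a count in 3 DiD+ cells and in 1 DiD- cell. Cell 68 held 311 of the 340 counts of DiD+ cells (84.3 CPM), Cd74 cells 88 and 21 held the rest (6.03 and 0.64 CPM), and DiD- cell 39 held all 10 counts of that group (2.08 CPM). The summed levels were 2.33 CPM (2.09 to 2.59) and 0.0837 CPM (0.0401 to 0.154), which with a pseudocount of 1 CPM gave a log2 ratio of 1.62. Without the Cd74 cells and cell 68 no DiD+ cell held a count, and the ratio turned to -0.12.

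**Figure D2:**
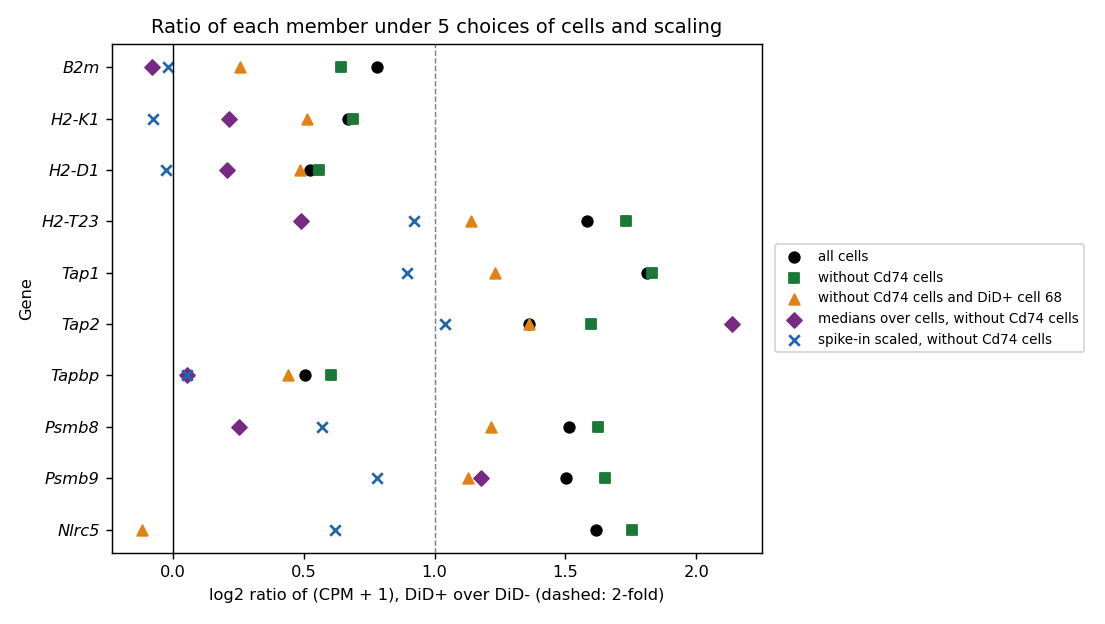
log2 ratio of (CPM + 1) in DiD+ over DiD- cells for each gene, from summed counts of all cells (circles), without the Cd74 cells (squares) and without the Cd74 cells and cell 68 (triangles), and, both without the Cd74 cells, from the medians over cells (diamonds, not drawn for Tap1, with a median of 0 in DiD- cells, and Nlrc5, with a median of 0 in both groups) and after spike-in scaling (crosses). In these sets B2m, H2-K1 and H2-D1 lie just below 0 after spike-in scaling, B2m also from the medians, and Nlrc5 without cell 68, and Tap2 lies above 1 in the 5 drawn, though at 0.76 after spike-in scaling of all cells (not drawn).

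Per kilobase of exon, the order of the summed levels in DiD+ cells was B2m (1279 CPM per kilobase), H2-D1 (855), H2-K1 (201), H2-T23 (80.6), Psmb8 (62.5), Tapbp (58.0), Tap2 (24.4), Tap1 (12.7), Psmb9 (11.5) and Nlrc5 (0.274). In DiD- cells Tapbp (40.8) stood above H2-T23 (26.7) and Psmb8 (21.7), and Psmb9 (3.87) above Tap1 (3.49). Neighbours such as H2-T23, Psmb8 and Tapbp, or Tap1 and Psmb9, differed by far less than the spread over the cells of a group. Length here was the union of all annotated exons of a gene, not that of the transcript in these cells. On this scale B2m stood above each heavy chain listed here in both groups. In CPM, with no division by length, the median of H2-D1 was above that of B2m. The medians were 1661 against 735 CPM in DiD+ and 1391 against 556 CPM in DiD- cells.

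The immunoproteasome subunits were read against the constitutive subunits they replace, as a share of the pair in summed counts per kilobase. Psmb8 made up 10.8% of Psmb8 and Psmb5 in DiD+ and 4.30% in DiD- cells. Psmb9 made up 3.41% of Psmb9 and Psmb6 in DiD+ and 1.18% in DiD- cells. Without cell 68 the DiD+ shares were 8.64% and 2.50%. The size of a share depended on the exon lengths used. With no division by length Psmb8 made up 31.3% in DiD+ and 14.4% in DiD- cells, and Psmb9 6.45% and 2.29%. In single DiD+ cells the Psmb8 share ran from 0 to 68.4% with a median of 4.61%, and in DiD- cells from 0 to 18.8% with a median of 3.55%, so that the groups overlapped. The highest value was that of cell 68. The constitutive genes were near level, with log2 ratios of 0.09 for Psmb5, 0.01 for Psmb6 and -0.17 for Psmb7. Psmb10, the remaining immunoproteasome subunit, made up 60.6% of Psmb10 and Psmb7 in DiD+ and 46.3% in DiD- cells (43.4% and 30.1% with no division by length). Its log2 ratio of 0.66 fell to 0.47 without the Cd74 cells and to 0.16 without cell 68 as well.

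**Figure D3:**
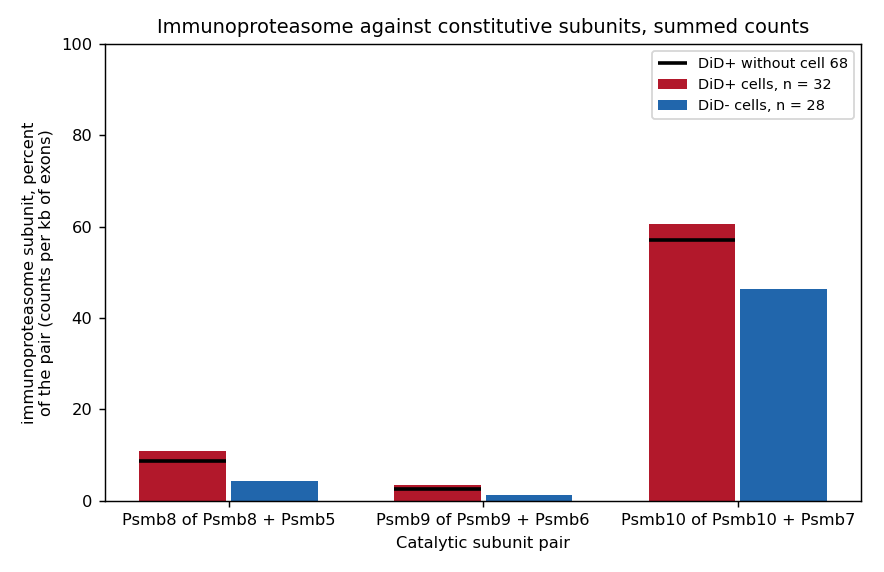
Share of each immunoproteasome subunit in its pair with the constitutive subunit it replaces, in percent of summed counts per kilobase of exon, for the 32 DiD+ (red) and 28 DiD- cells (blue), with a black line at the DiD+ value without cell 68. On this scale the shares of Psmb8 and Psmb9 are larger in DiD+ cells (10.8% against 4.30% and 3.41% against 1.18%), and Psmb10 is about as abundant as Psmb7. The size of a share depends on the exon lengths used, and with no division by length Psmb8 made up 31.3% against 14.4%.

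Among cells without Cd74, 6 DiD+ cells (68, 83, 22, 76, 17 and 80) stood above the highest DiD- cell (45) in the mean of log2(CPM + 1) over the 10 genes. The mean was 10.36 in cell 68, between 7.46 and 8.08 in the other 5 and 6.89 in DiD- cell 45. The other 20 DiD+ cells lay within the range of DiD- cells, which went down to 3.61. The high cells did not carry the genes in equal measure. H2-D1 stood between 4533 and 5717 CPM in all 6, whereas Psmb8 was 841 CPM in cell 83 and 63.5 CPM in cell 17, and H2-T23 was 536 CPM in cell 76 and 143 CPM in cell 83. Their spike-in share, which is higher where a well held less cellular RNA, was 6.53% in cell 68 and 1.41% to 2.71% in the other 5, beside a median of 1.86% over the 26 DiD+ cells. All 6 held luciferase transcripts (97 to 434 counts), none held a count of Ptprc, the gene of CD45, and the macrophage sum was 177 CPM in cell 68 and 12.6 to 79.01 CPM in the others. The keratin sum of cell 68, 329.5 CPM, was among the lowest. The part of these measures in the result was not tested.

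Cells with high class I genes also had high interferon-stimulated genes. Over the 53 cells without Cd74, the mean of the 10 genes followed the summed level of 17 interferon-stimulated genes, none of them among the 10, with a Pearson coefficient of 0.80 and a Spearman coefficient of 0.59, and 0.67 and 0.54 without the 2 cells farthest from the median of that sum. The Spearman coefficient was 0.72 within the 26 DiD+ and 0.41 within the 27 DiD- cells. These coefficients describe cells that share a pool of mice and a plate protocol, and the same total scales both measures. With the total count of a cell the mean had a Spearman coefficient of -0.02, and with its spike-in share 0.27, which was 0.45 within DiD+ and -0.015 within DiD- cells. The interferon sum was 17977 CPM in cell 68, 1002 to 2522 CPM in the other 5 high cells and at most 1053 CPM in DiD- cells. Of the single genes, B2m (0.53) and Tap2 (0.47) had the highest coefficients with that sum, and Tapbp (0.19) and Nlrc5 (0.06) the lowest.

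**Figure D4:**
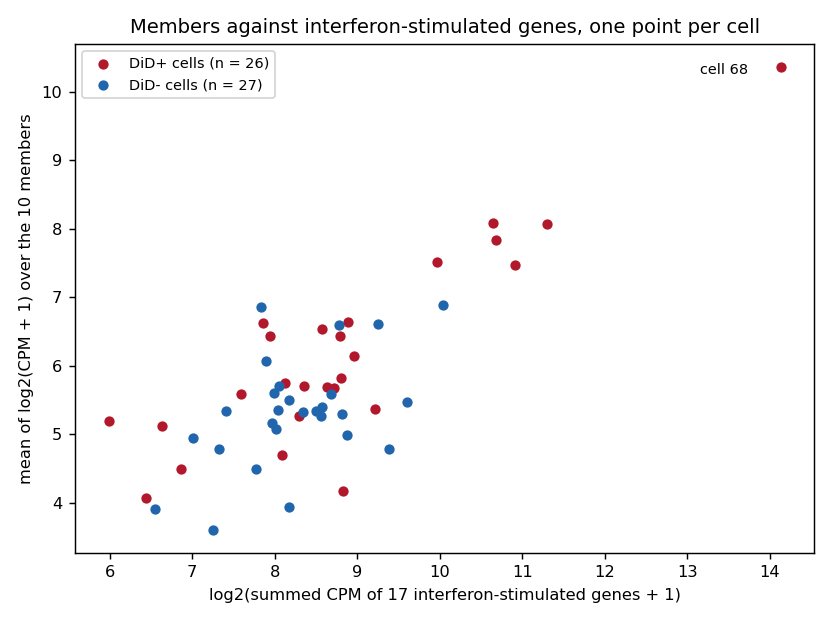
Mean of log2(CPM + 1) over the 10 genes (vertical axis) against log2 of the summed CPM of 17 interferon-stimulated genes plus 1 (horizontal axis), 1 point per cell without Cd74, DiD+ in red (26 cells) and DiD- in blue (27 cells). Cell 68 and 5 other DiD+ cells lie at the upper right, above a mean of 7.4 and above every DiD- cell, and the remaining cells of both groups lie together.

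Among the 10 genes, the 45 pairs had Spearman coefficients from 0.02 to 0.71 over these 53 cells, with a median of 0.26. The classical heavy chains H2-K1 and H2-D1 formed the closest pair (0.71), followed by B2m with H2-D1 (0.57), and the division of reads between close copies bears on the first of these. Within DiD- cells alone the median over pairs was 0.12, from -0.40 to 0.49, and within DiD+ cells 0.43, from 0.08 to 0.84. Of these DiD+ cells only cell 68 held a count of Nlrc5. Cell 68 was also the highest for every gene, which fixes the sign of the Nlrc5 pairs there. In the DiD- cells Nlrc5 rested on cell 39 alone. Coefficients between pairs of genes outside the 10 were not computed. Among 7535 other genes that were seen in 30 or more cells and reached 10 CPM in a group, whose coefficients with the mean of the 10 genes had a median of -0.01, the closest were Lgals9 (0.62), Cp (0.59), Xdh (0.58), Isg15 (0.58), Plscr4 (0.58), Il11ra1 (0.56), Selenom (0.56), Tmem106b (0.55), H2-T22 (0.55) and Grn (0.54). Lgals9 encodes galectin-9, Cp ceruloplasmin and Isg15 a ubiquitin-like protein induced by interferon, and H2-T22 is itself a class I heavy chain.

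Most of the rest of the pathway had smaller ratios. For the counts of each list from here on, 53.2% of all genes were higher in DiD+ cells and 12.1% at least 2-fold higher. Without the Cd74 cells these shares were 53.5% and 10.4%. Of 15 further class I heavy chain genes, 6 reached 1 CPM, of which 5 were higher in DiD+ cells and 2 at least 2-fold, with a median log2 ratio of 0.51. H2-T22, a nonclassical chain read by gamma delta T cells, stood at 97.6 CPM in DiD+ cells and 46.8 CPM in DiD- (1.04, and 1.06 without the Cd74 cells). H2-Q7 had a ratio of 1.04 that was -0.01 without the Cd74 cells, where no DiD+ count remained. Cd1d1, which presents lipids, had a ratio of 0.87, H2-T10 0.15 and H2-M3, which presents formylated peptides, 0.11. H2-M3 turned to -0.021 without the Cd74 cells and to -0.20 without cell 68 as well. Mr1, which presents vitamin B metabolites, was at -0.27 and turned to 0.07 without the Cd74 cells.

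The 13 other genes of peptide supply and loading, the chaperones and trimming enzymes of the endoplasmic reticulum and the proteasome activators, had a median log2 ratio of 0.04. Of these 8 were higher, beside 53.2% of all genes, and none was at least 2-fold apart in either direction. The highest were Psmb10 (0.66), Tapbpl (0.61), a tapasin relative, and Psme1 (0.32), a subunit of the proteasome activator PA28. The lowest were the chaperone Pdia3 (-0.26), the peptide-trimming enzyme Erap1 (-0.24) and calnexin, Canx (-0.18). Without the Cd74 cells 6 of the 13 were higher and the median was -0.12.

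Of 16 regulators of the class I genes, 13 were higher in DiD+ cells and 4 at least 2-fold, beside 53.2% and 12.1% of all genes. Their median was 0.41. Stat2, which carries the type I interferon signal, stood at 12.9 CPM in DiD+ cells and 1.13 CPM in DiD- (2.71). It had a count in 13 and 4 cells. Nfya, a Y box binding subunit, had a log2 ratio of 1.59 (5.76 against 1.24 CPM) and 1.64 without the Cd74 cells and cell 68. Irf8, a factor of myeloid cells, had a ratio of 2.31 that turned to -1.31 without the Cd74 cells. Irf1, the remaining gene past 2-fold, had a ratio of 1.35, and 1.44 without the Cd74 cells. With cell 68 left out too it was 1.00, just short of 2-fold. Counts of Irf1 were present in 31 DiD+ and 26 DiD- cells. At the other end stood Nfyc, a partner of Nfya in Y box binding (-0.42), Rfxap, an X box binding subunit (-0.26), and Atf1 (0.00).

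All 7 interferon receptor and kinase genes were above 1 CPM, and 5 were higher in DiD+ cells, beside 53.2% of all genes. The median of the 7 was 0.43. The kinase gene Tyk2 had a log2 ratio of 1.61 and the type I receptor gene Ifnar2 1.30, beside 1.82 (40.7 against 10.8 CPM) and 0.87 without the Cd74 cells. Ifngr2 and Ifngr1, the receptor for interferon gamma, had ratios of 0.45 and 0.30, Jak2 -0.09 and Jak1 -0.25. Of the 17 interferon-stimulated genes used above, 16 were higher in all cells and 14 at least 2-fold, with a median of 1.81. Without the Cd74 cells and cell 68 these counts were 13 and 10 of 16, beside 53.7% and 9.94% of all genes, with a median of 1.12.

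Class II genes present peptides to CD4 T cells, and Cd74, which chose the cells left out, is one of the 8 listed. With all cells, 6 of 8 reached 1 CPM and all 6 were over 2-fold higher in DiD+ cells, with a median of 3.91. Cd74 itself stood at 184 CPM in DiD+ cells and 7.20 CPM in DiD-. Without the Cd74 cells 2 of 8 reached 1 CPM, H2-Eb1 at 3.82 CPM and H2-DMb1 at 2.45 CPM in DiD+ cells. DiD- cells held 0 counts and 1 count of them, so that their log2 ratios of 2.27 and 1.77 depend on the pseudocount, and Ciita, the class II transactivator, was at 0 in every cell. Of 6 ligands that restrain or engage T and natural killer cells, 4 reached 1 CPM. Cd47 (0.28), Cd274, the gene of PD-L1 (0.19), and Raet1e (0.14) had ratios above 0, and Ulbp1 was at -0.73. Cell 68 held 70.2% of the Cd274 counts of DiD+ cells, and without it and the Cd74 cells the ratio of Cd274 turned to -0.93 and the median of the 4 to -0.091. None of the 4 was 2-fold apart in all cells. After spike-in scaling of all cells, the Cd74 cells included, all genes had a median of -0.34. The share of all genes that were higher on this scale was not computed, so list counts are not given. The medians of the interferon-stimulated and class II genes stood 1.42 and 2.94 above that of all genes. The class II value includes Cd74 and the Cd74 cells. Those of the further heavy chains, the receptors and kinases and the regulators stood 0.39, 0.28 and 0.12 above it. Peptide supply and loading, the constitutive proteasome genes and the ligands stood at -0.023, -0.077 and -0.054 from it.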

How the data were processed

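Single PyMT-Bo1 cells, 32 DiD+ and 28 DiD-, were the samples, and the labels gave each cell's group. Per the labels and methods, the authors aligned reads with STAR to GRCm38/mm10 with ERCC and transgene sequences added, and deposited a table of RSEM estimated counts that are not normalized. The deposited BASiCS table holds normalised signal made by the authors and was used only as another scaling. The instrument and read length differ between the labels and the methods. No column was left unused (0).

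Estimated counts were rounded, and mouse genes alone entered totals. Counts were summed per group and divided by the group total (CPM), and DiD+ was divided by DiD- on a log2 scale after 1 CPM had been added to both, for genes that reached 1 CPM in either group. A fold of 2 was the size named for a gene. No p-value or standard error was computed, since a group is 1 sample. Intervals are exact Poisson and exact binomial (Clopper-Pearson) at 95%. For a gene without a count in a group, the counting limit was 0.0205 CPM in DiD+ cells and 0.0251 CPM in DiD- (3 counts over the group). This limit takes each read as an independent count, as the CPM intervals do. It is therefore too low even for counting error and does not cover the spread over cells. Wells were not screened for doublets, and the Cd74 cells may hold more than 1 cell. A marker was called present at 10 counts.

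The 10 genes and the other lists were chosen with earlier results of these data known. One gene is not reported here, and the lists and sums were computed without it. Besides the 10, the text names the 3 highest and 3 lowest log2 ratios of each pathway list, and the 10 genes closest to the mean of the 10 by Spearman coefficient. Other list genes, and cells given by number, were picked after their values were seen. Marker lists for dendritic, B or plasma, T or NK, neutrophil, endothelial and mesenchymal stromal cells had sums of at most 64.2, 66.2, 9.21, 170, 84.7 and 465 CPM in any cell, in that order.

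Alternatives were the mean over cells of CPM, the BASiCS values, spike-in scaling, edgeR TMM and DESeq2 size factors on the group sums, pseudocounts of 0.1 and 10 CPM, other minimums, thinning, other rules for the cells left out, and the removal of each cell by itself. The median over cells and GAANNGAAA were added after the data were seen. Python 3.11.15, numpy 2.4.6, pandas 2.3.3, scipy 1.17.1, R 4.3.3, edgeR 4.0.16 and DESeq2 1.42.0 were used. On simulated counts for 47729 genes, 100% of 200 genes changed by known ratios came within 0.2 of the expected log2 ratio. The expected ratio took in the pseudocount and the change in totals. The counts were Poisson draws from a shared profile with no further spread between cells, and low genes were not changed. This checks the computation only and not how well ratios are measured in these cells.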

Additional observations from a re-analysis of the deposited data

How the results depend on the processing

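With no replicate mice, no value here has a test, and the spread between mice is unknown. The median log2 ratio of the 10 genes was 1.43 in all cells and 1.61 without the Cd74 cells. It was 1.30 and 1.47 from the BASiCS values, 0.94 and 0.96 with a pseudocount of 10 CPM, 0.52 and 0.59 after spike-in scaling, and 0.44 and 0.23 from the medians over cells (added after the data were seen), and 1.56 when cells with at least 4 erythroid markers were left out along with the Cd74 cells. Of the 10 genes, 6 were at least 2-fold higher in both sets of cells, beside 12.1% and 10.4% of all genes. After spike-in scaling 0 and 1 of the 10 were at least 2-fold higher, beside 7.49% and 6.86% of all genes. From the medians 3 and 3 of the 10 were, beside 8.60% and 11.03% of all genes. Spike-in scaling gave B2m -0.0087, H2-K1 -0.14, H2-D1 -0.11 and Tapbp -0.10 in all cells, and B2m -0.018, H2-K1 -0.075 and H2-D1 -0.026 without the Cd74 cells, where the median of all genes was -0.24. From the medians, B2m was -0.081 without the Cd74 cells. Nlrc5 without the Cd74 cells ran from -0.12 without DiD+ cell 68 to 1.87 without DiD- cell 39. Leaving out each cell in turn moved the median from 0.78 to 1.49 in all cells and from 0.82 to 1.68 without the Cd74 cells, with the lowest value in both without cell 68, and the number at least 2-fold higher from 5 to 6. Cd74 minimums of 1 or 100 counts, or 7 macrophage markers in place of Cd74, left out the same number of cells (26 DiD+ and 27 DiD- cells stayed) and gave the same median. Mean CPM, TMM and DESeq2 scaling kept all 10 genes higher. The cause of these changes was not tested, except that the cell left out is itself the change in the leave-one-out values. Shares of cells with a count rest on 26 to 32 cells a group. Their intervals take cells as independent draws although a group is 1 sample, so no comparison of the groups is drawn from them.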
